A study of Mus musculus with 2 samples.

Results

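The genes examined were 9 chemokine receptors and the egress receptor S1pr5, chosen by gene symbol as 10 of the 26124 genes counted in 2 spleen libraries: Cxcr2, Ccr1, Cxcr4, Ccr2, Cx3cr1, S1pr5, Xcr1, Ccr9, Cxcr3 and Ccr6. To follow myeloid differentiation in sickle cell disease (SCD), spleen cells of 1 wild-type and 1 SCD mouse, aged 12 to 16 weeks and untreated, had been run on a 10x Genomics droplet platform that reads the 3′ end of each RNA. Both mice were labelled as homozygous for Hbatm1Paz, an allele that disrupts mouse alpha globin, and both carried the human globin transgene Tg(HBA-HBBs)41Paz. The wild-type mouse was a non-sickling control, heterozygous for Hbbtm1Tow and hemizygous for the transgene. The SCD mouse was homozygous for Hbbtm1Tow and for the transgene and was labelled as sickling. Erythrocytes had been lysed and other cells depleted with a magnetic bead kit that enriches dendritic cells (DCs) negatively. With 1 mouse per genotype there was no replicate, so no test was possible. All intervals given are exact 95% intervals that cover counting error only, and a difference between the libraries is a difference between 2 animals.

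Chemokine receptors are G protein-coupled receptors that steer leukocytes along gradients of chemokines. In neutrophils, CXCR4 holds cells in the bone marrow through its ligand CXCL12, and CXCR2 draws them out towards CXCL1 and CXCL2, so the level of either transcript is commonly read against maturation. CCR2 lets classical monocytes leave the marrow, CX3CR1 supports the survival of non classical monocytes, S1PR5 is a sphingosine-1-phosphate receptor for their exit into blood, and XCR1 marks the cross-presenting conventional DCs named cDC1.

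Of the members, Ccr9, Xcr1, Ccr1 and Ccr2 lay within 435.1 kb of chromosome 9 (chr9:123678439-124113557, GRCm38), and all 10 genes were protein-coding. Cxcr2 lies on the plus strand at chr1:74153989-74161246, Cxcr4 on the minus strand at chr1:128588199-128592293, and Ccr1 on the minus strand at chr9:123962124-123968692. The annotated span of Cx3cr1 (chr9:119901616-120069879, minus strand) overlapped the same-strand genes Gorasp1, Csrnp1 and Xirp1, so UMIs in the shared bases could belong to either gene. Ccr1 has a close paralog, Ccr1l1, and reads common to the pair could have been lost or split. The 250 bases before the transcript start are shown for the 3 neutrophil receptors, because these rose along neutrophil maturation in the wild-type library and Cxcr4 alone did so far less in SCD. Sequences are from RefSeq (GRCm38.p6), read 5′ to 3′ on the gene's strand, with capitals marking GC boxes (GGGCGG on either strand). The Cxcr2 window is chr1:74153744-74153993 (plus strand), the Ccr1 window chr9:123968693-123968942 (minus strand) and the Cxcr4 window chr1:128592300-128592549 (minus strand).
Cxcr2: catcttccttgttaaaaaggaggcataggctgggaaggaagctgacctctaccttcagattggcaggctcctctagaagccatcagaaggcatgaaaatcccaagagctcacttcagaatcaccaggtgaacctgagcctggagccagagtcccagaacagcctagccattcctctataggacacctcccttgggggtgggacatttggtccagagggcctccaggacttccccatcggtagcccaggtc
Ccr1: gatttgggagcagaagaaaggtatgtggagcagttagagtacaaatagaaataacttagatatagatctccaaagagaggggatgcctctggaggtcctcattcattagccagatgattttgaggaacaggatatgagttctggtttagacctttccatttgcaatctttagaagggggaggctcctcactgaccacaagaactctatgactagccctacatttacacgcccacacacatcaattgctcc
Cxcr4: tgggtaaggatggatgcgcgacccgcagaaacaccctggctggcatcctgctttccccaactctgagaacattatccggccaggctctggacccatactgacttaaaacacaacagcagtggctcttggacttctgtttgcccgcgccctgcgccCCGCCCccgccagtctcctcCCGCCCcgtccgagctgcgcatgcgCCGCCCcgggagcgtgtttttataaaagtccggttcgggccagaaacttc
The Cxcr4 window was the richest in G and C of the 3, at 61.2% against 54.4% for Cxcr2 and 43.6% for Ccr1. It held 3 GC boxes, at 95, 75 and 50 bases before the start, whereas the Cxcr2 and Ccr1 windows held none. Every member was matched in the promoter table, with 11 windows in all since Ccr6 had 2. The letters searched on both strands were the PU.1 core GAGGAAGT, C/EBP TTGCNNAA, AP-1 TGANTCA, CRE TGACGTCA and the GC box GGGCGG, which were present in 2.44%, 9.56%, 6.75%, 1.55% and 32.7% of the 32851 windows of all genes. Outside Cxcr4, only the Cxcr3 window (1 PU.1 core) and the S1pr5 window (2 GC boxes) matched, and the other 8 windows held none of these letters.

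The matrices comprised 10845 wild-type cells with 97880318 UMIs (unique molecular identifiers, 1 per captured RNA molecule) and 13447 SCD cells with 189688217 UMIs. The filters on genes, mitochondrial and ribosomal UMIs kept 9423 and 10635 cells, with a median of 4884 and 8282 UMIs, and 88 cell barcodes occurred in both libraries. Cells were clustered without the receptor genes and named from other markers, so each name below stands for cells like that type and was not the study's own. Although the suspensions had been enriched for DCs, neutrophils made up 46.4% of the kept wild-type cells and 67.7% of the kept SCD cells. The 19 neutrophil markers took 300281 and 454125 counts per 1000000 (CPM) of the neutrophil UMIs. In the other compared classes they took 1033 to 11492 CPM in wild-type and 5115 to 11431 CPM in SCD, and Cxcr2, Ccr1 and Cxcr4 are read there beside this neutrophil RNA. In erythroid cells the mouse globin genes Hba-a1 and Hbb-bs took 109509 CPM and 282085 CPM in wild-type and 111626 CPM and 2766 CPM in SCD, so Hbb-bs was low in the SCD library, whereas the Hba-a1 level in both libraries goes against the labelled allele. Whether RNA of the human transgene was counted as Hba-a1 was not tested. A list of 25 stress genes (immediate early genes such as Fos, and heat shock genes) also differed between the libraries, at 6208 CPM in wild-type and 1767 CPM in SCD neutrophils.

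Each receptor had a main class in which its level, as CPM of the class, was several times that of most others. Of the kept UMIs of each gene, neutrophils held 90.6% (wild-type) and 95.1% (SCD) for Cxcr2, 87.0% and 83.0% for Ccr1, and 72.3% and 79.1% for Cxcr4. Plasmacytoid DCs (pDCs) held 92.9% and 85.2% of Ccr9, and cDC1 held 93.4% and 92.8% of Xcr1. Ccr2 was spread more widely, with 45.7% and 56.2% in classical monocytes. Non classical monocytes had the highest S1pr5 level in both libraries, but they held 80.8% of its wild-type UMIs and 37.2% of its SCD UMIs, with 430 and 54 such cells captured.

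**Figure D1:**
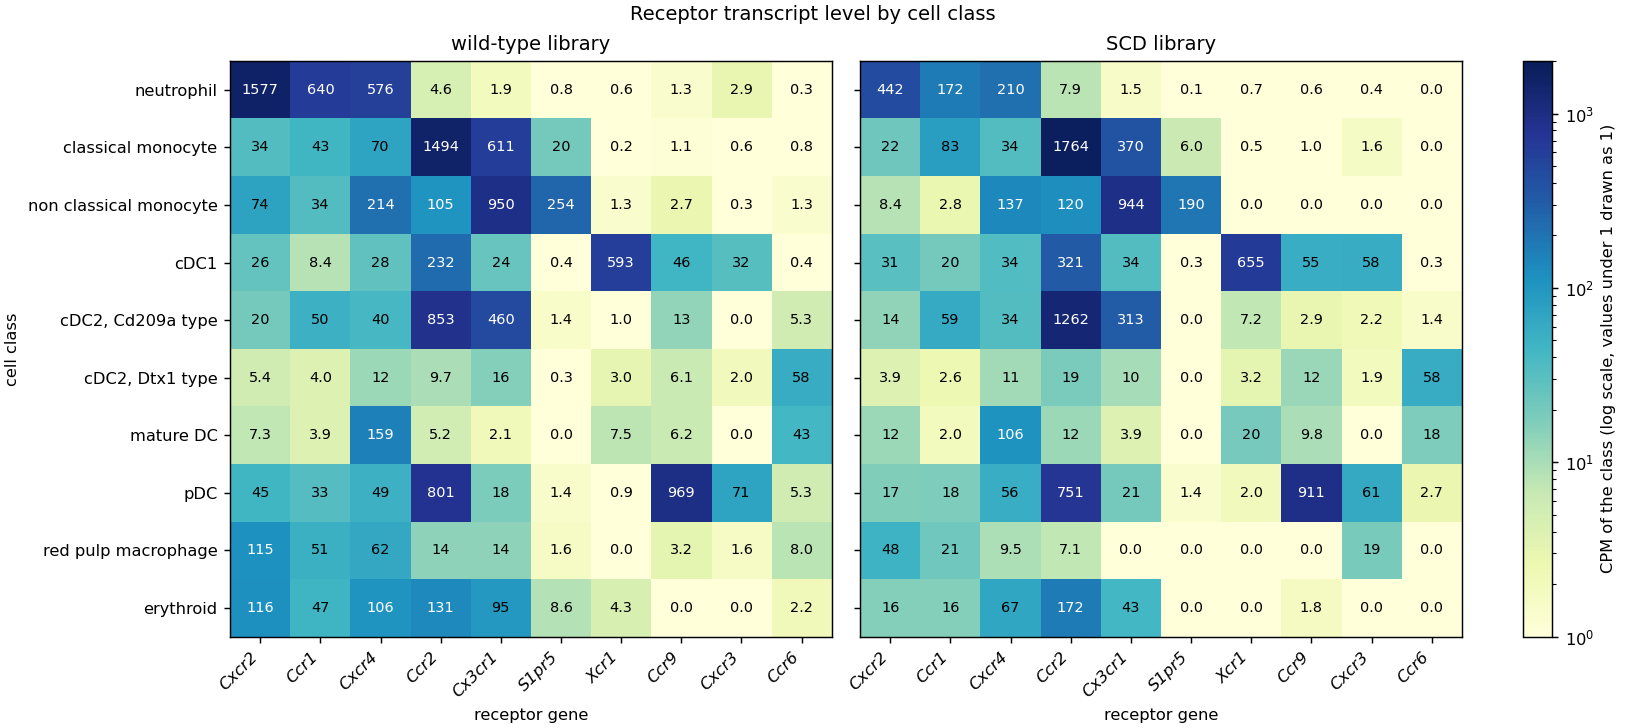
Level of the 10 receptor genes (columns) in 10 cell classes (rows) of the wild-type and SCD libraries, with the CPM of the class written in each field and coloured on a log scale. Cxcr2, Ccr1 and Cxcr4 were highest in neutrophils, Ccr2 in classical monocytes, Cx3cr1 and S1pr5 in non classical monocytes, Xcr1 in cDC1 and Ccr9 in pDCs of both libraries.

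The 10 receptors were first compared over all kept cells, without regard to class, so these levels also depend on the mix of classes. The share of all genes lower in SCD over all kept cells was not counted. Ccr6 was the lowest relative to wild-type, at 17.5 CPM in wild-type and 1.45 CPM in SCD (ratio 0.0825, interval 0.0689 to 0.0983). S1pr5 followed with 15.4 and 1.84 CPM (ratio 0.119, 0.101 to 0.140). The ratios of Ccr9, Cxcr3, Cx3cr1, Cxcr2, Ccr1, Cxcr4 and Xcr1 were between 0.321 and 0.837, and that of Ccr2 was 1.06 (1.05 to 1.08). The classes that carry Ccr6 and S1pr5 also took smaller shares of the cells in SCD: Dtx1-type cDC2 were 14.7% of the kept wild-type and 1.97% of the kept SCD cells, and non classical monocytes 4.56% and 0.508%. The levels were therefore compared within each class.

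Within classes, a gene counted as expressed at 50 CPM and 20 UMIs in at least 1 library, and as past 2-fold when its log2 ratio (SCD over wild-type, pseudocount 5 CPM) reached 1 in size. Of 32 expressed pairs of receptor and class, 9 were at least 2-fold lower in SCD and 0 at least 2-fold higher. Among all expressed genes, the share at least 2-fold lower ranged over the classes from 0.231% in pDCs to 19.5% in neutrophils, and the share at least 2-fold higher from 0.346% in pDCs to 53.8% in erythroid cells. Those 9 pairs comprised the 3 receptors of neutrophils, Cxcr2 in non classical monocytes, Cxcr2, Ccr1 and Cxcr4 in red pulp macrophages, and Cxcr2 and Cx3cr1 in erythroid cells. The neutrophil pairs exceeded 50 CPM in both libraries, but the other 6 did so only in wild-type, where they were high, so their direction was set in part by the limit itself. With called doublets removed the pairs lower in SCD fell to 5 of 28, with finer clusters (resolution 2) to 4 of 27, and with the mitochondrial and ribosomal filters off to 5 of 30. The 3 neutrophil pairs were past 2-fold in each of these settings, and the pairs that lost their call or their value lay in other classes.

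**Figure D2:**
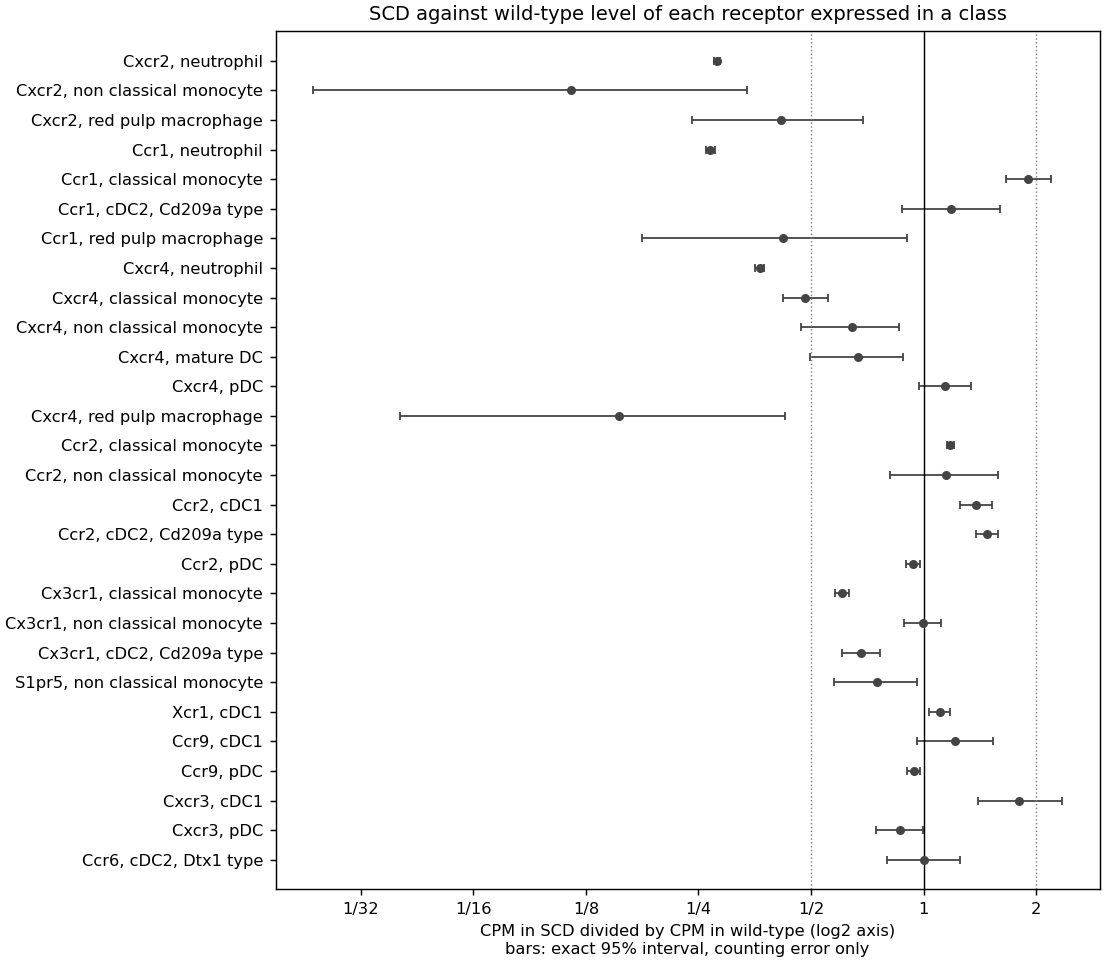
SCD level divided by wild-type level (log2 axis) for every expressed pair of receptor and class, erythroid cells left out, with exact 95% intervals for counting error. The solid line marks equal levels and dotted lines 2-fold differences, and the neutrophil and red pulp macrophage pairs, Cxcr2 in non classical monocytes and Cxcr4 in classical monocytes (0.483 without the pseudocount) lie left of the lower dotted line.

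To see how the neutrophil receptors stood in the largest class, UMIs were summed over 4371 wild-type and 7196 SCD neutrophils. Cxcr2 was the most abundant of the 10 transcripts there, at 1577 CPM in wild-type and 442.5 CPM in SCD, 3.56-fold lower (ratio 0.281, 0.276 to 0.286). Ccr1, a receptor for CCL3 and other inflammatory chemokines, stood at 640.5 and 172 CPM, 3.72-fold lower (ratio 0.269, 0.262 to 0.277). Cxcr4 stood at 576 and 210.0 CPM, 2.74-fold lower (ratio 0.365, 0.355 to 0.375). All 3 members expressed in neutrophils were thus at least 2-fold lower in SCD, in a class where 19.5% of the 2487 expressed genes were at least 2-fold lower and 1.65% at least 2-fold higher. Their median log2 ratio was -1.82, against -0.38 for all expressed genes of the class, and with median-of-ratios scaling the ratios of Cxcr2, Ccr1 and Cxcr4 were -1.43, -1.47 and -1.04. After each cell was thinned to 1000 UMIs, which left out 46 wild-type and 12 SCD neutrophils, a Cxcr2 UMI was found in 80.4% of wild-type and 43.6% of SCD neutrophils (97.4% and 89.7% unthinned, median depths 2452 and 6958 UMIs). In Dtx1-type cDC2, which should lack the gene, the thinned share was 0.437% in wild-type and 0 of 209 SCD cells (upper bound 1.75%), at median depths of 7536 and 7200 UMIs. A Cxcr4 UMI was found in 47.1% and 21.3% of thinned neutrophils (76.5% and 74.3% unthinned), and a Ccr1 UMI in 52.2% and 23.4% (82.2% and 65.7% unthinned).

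Neutrophils of the libraries differed in maturity, so they were placed by the share of late granulocyte UMIs among early, intermediate and late stage UMIs, from lists that held no receptor. Cells with a share up to 0.1 (the immature range, rich in the granule genes Ngp, Camp and Ltf) were further split by cell cycle genes. The immature cells that were not dividing were 10.7% of wild-type and 52.3% of SCD neutrophils. The most mature range, 0.9 to 1, held 71.2% of wild-type neutrophils (3112 cells) but 9.30% of SCD neutrophils (669 cells). These ranges are slices of a continuous score, and 21.7% of staged wild-type and 10.1% of staged SCD neutrophils lay within 0.05 of the limit at 0.9.

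Cxcr2 rose steeply along this axis in both libraries. In wild-type it stood at 79.7 CPM in dividing cells, 326 in non-dividing immature cells, 1169 at a late share of 0.1 to 0.5, 2187 at 0.5 to 0.9 and 2523 at 0.9 to 1. In SCD the same ranges held 76.5, 243, 886, 1545 and 1859 CPM. The rise from non-dividing immature to most mature cells was 7.75-fold in wild-type (7.38 to 8.14) and 7.65-fold in SCD (7.35 to 7.96), with intervals that overlapped. Ccr1 also rose, from 119 to 1031 CPM in wild-type (8.63-fold, 7.96 to 9.37) and from 94.7 to 755 CPM in SCD (7.97-fold, 7.48 to 8.48).

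Over these ranges, Cxcr4 followed the other receptors in the wild-type library only. There it stood at 194 CPM in dividing cells, 236 in non-dividing immature cells, 434 at 0.1 to 0.5, 710 at 0.5 to 0.9 and 838 at 0.9 to 1, a rise of 3.55-fold (3.34 to 3.77) from non-dividing immature to most mature cells. In SCD it stood at 138, 193, 342, 277 and 265 CPM, so that among the ranges it was highest at 0.1 to 0.5. At the end it was 1.37-fold (1.245 to 1.504) above the non-dividing immature level. The interval of the SCD rise lay wholly below that of the wild-type rise. In both libraries the most mature neutrophils thus held more Cxcr4 than the non-dividing immature ones. The place of the SCD peak depended on the grouping. With clusters in place of ranges, SCD Cxcr4 was 351 CPM at a late share of 0.185, 256 at 0.737 and 371 at 0.943, its highest level. The same clusters held 408, 359 and 833.5 CPM in wild-type.

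Set against Cxcr2, Cxcr4 declined with maturity in both libraries, and further in SCD. Because 3′ UMIs are not scaled by transcript, the ratio of Cxcr4 to Cxcr2 UMIs is compared only between ranges and libraries. In wild-type it was 2.43 in dividing cells, 0.725 in non-dividing immature cells, 0.371 at 0.1 to 0.5, 0.324 at 0.5 to 0.9 and 0.332 (0.323 to 0.342) at 0.9 to 1. In SCD it was 1.80, 0.795, 0.386, 0.180 and 0.142 (0.129 to 0.157). The intervals of the libraries overlapped in the first 3 ranges and were separate in the last 2, where the wild-type ratio stayed level and the SCD ratio kept falling. That last step depended on the grouping. From the cluster of late share 0.737 to the most mature cluster, the ratio went from 0.226 to 0.334 in wild-type and from 0.1685 to 0.178 in SCD.

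**Figure D3:**
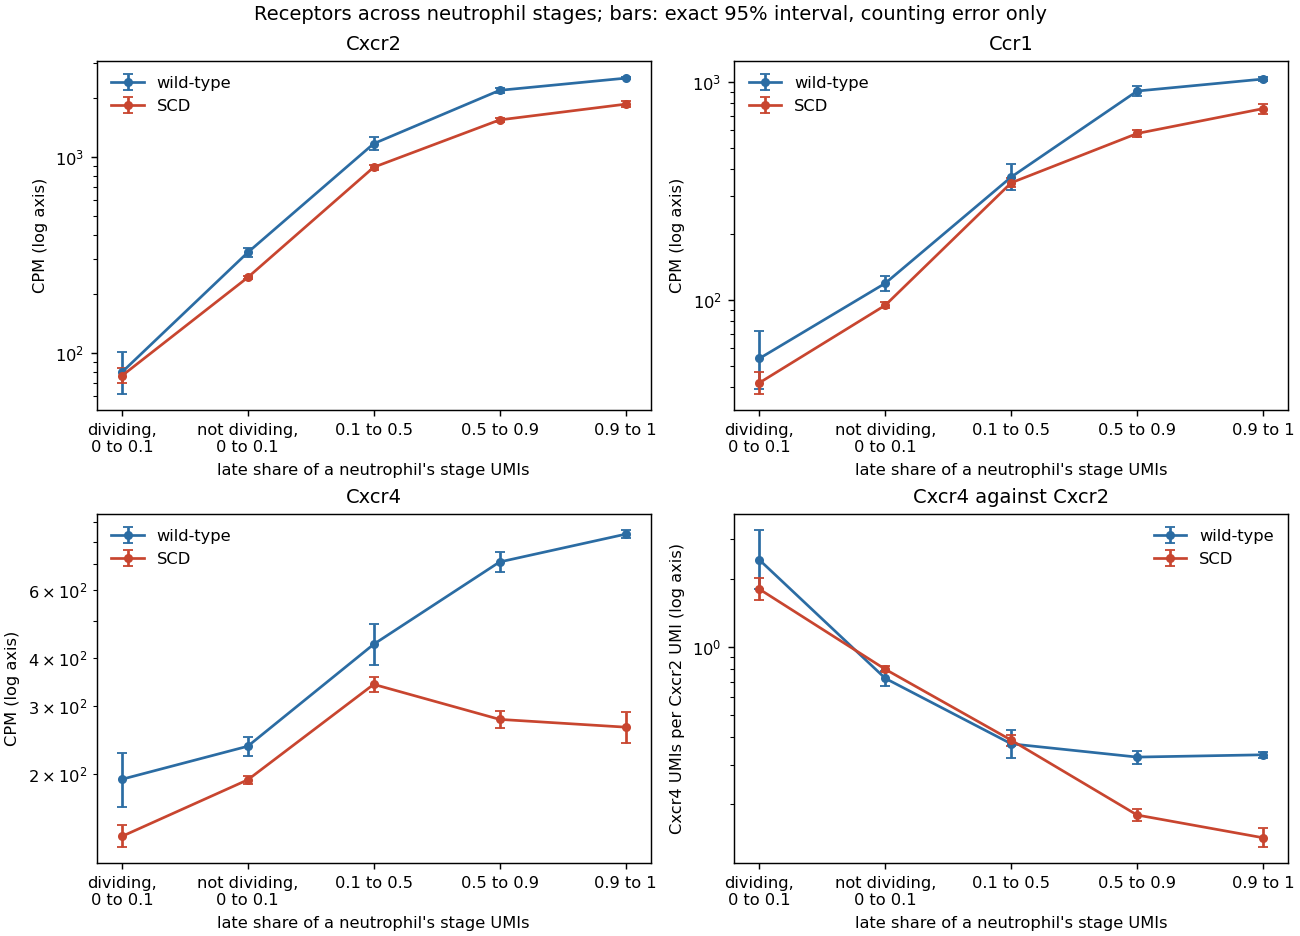
Cxcr2, Ccr1 and Cxcr4 level (CPM, log axis) and Cxcr4 UMIs per Cxcr2 UMI (log axis) in 5 ranges of neutrophil maturity for wild-type (blue) and SCD (red), with exact 95% intervals for counting error. Cxcr2 and Ccr1 rise in both libraries, whereas Cxcr4 reaches 838 CPM in the most mature wild-type cells and 265 CPM in the most mature SCD cells.

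Within a range of maturity, Cxcr4 was the only one of the 3 receptors that passed 2-fold. The cells of a range were not fully alike in maturity, with a median late share of 1 in wild-type and 0.938 in SCD at 0.9 to 1, and of 0.844 and 0.770 at 0.5 to 0.9. In the most mature range it was 3.17-fold lower in SCD (ratio 0.316, 0.287 to 0.347), while Cxcr2 was 1.36-fold lower (ratio 0.737, 0.710 to 0.765) and Ccr1 1.37-fold lower (ratio 0.732, 0.690 to 0.776). In the range 0.5 to 0.9, Cxcr4 was 2.56-fold lower (ratio 0.391, 0.361 to 0.423), Cxcr2 1.42-fold lower and Ccr1 1.57-fold lower, and the stress list held 8.82 UMIs per 1000 in wild-type and 4.23 in SCD. With clusters in place of ranges, the difference in the cluster of intermediate maturity (late share 0.737, 103 wild-type and 1689 SCD cells) was under 2-fold, at 359 and 256 CPM of Cxcr4, with stress genes at 3519 and 3244 CPM. In the most mature cluster (late share 0.943) Cxcr4 stood at 833.5 and 371 CPM, past 2-fold. Of all genes expressed in the most mature range, 1.91% were at least 2-fold lower and 1.21% at least 2-fold higher in SCD, and in the range 0.5 to 0.9 these shares were 4.26% and 1.42%. In the range 0.1 to 0.5 none of the 3 receptors passed 2-fold, and Cxcr4 had a ratio of 0.787 (0.690 to 0.901), where 0.63% of genes were lower and 0.436% higher. In non-dividing immature cells Cxcr4 had a ratio of 0.819 (0.771 to 0.869) and again none passed, with 0.102% of genes lower and 0.256% higher. The typical gene was itself somewhat lower in the mature SCD cells, with a median log2 ratio of -0.27 at 0.5 to 0.9 and -0.22 at 0.9 to 1. With median-of-ratios scaling, which removes that shift, the log2 ratio in the most mature range was -1.43 for Cxcr4, -0.22 for Cxcr2 and -0.23 for Ccr1.

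How far the receptors differed also depended on the mix of stages. The SCD levels of the ranges were first weighted by the UMIs that each range held in wild-type. These weights are shares of UMIs and not of cells. The most mature range held 7507593 of the 15963931 UMIs of all wild-type neutrophils. With these weights Cxcr2 was 1156 CPM in SCD against 1575 CPM in wild-type (log2 ratio -0.44 in place of -1.82). Ccr1 was 463 against 637 CPM (log2 ratio -0.46 in place of -1.86). Cxcr4 was 238 against 574.5 CPM, at least 2-fold lower, with a log2 ratio of -1.25 in place of -1.43. When the wild-type levels were weighted by the UMIs of the ranges in SCD instead, none of the 3 receptors was 2-fold apart. On that mix Cxcr4 was 306 CPM in wild-type and 209 CPM in SCD, Cxcr2 593 and 437 CPM, and Ccr1 227 and 171 CPM.

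Cells of the most mature range were also asked whether they carried both transcripts. After thinning to 1000 UMIs, 45.2% of wild-type cells held both a Cxcr2 and a Cxcr4 UMI, against 17.5% of SCD cells. Cells with Cxcr2 alone were 43.4% in wild-type and 65.9% in SCD. Within a library, a Cxcr4 UMI was found in 51.0% of wild-type cells with Cxcr2 and 48.9% of those without it. For SCD cells these shares were 21.0% and 24.3%. Cxcr2 was abundant in this range (2523 and 1859 CPM), so cells without its UMI may lack it through sampling alone. These shares therefore cannot decide whether Cxcr4 separates cells by Cxcr2. The same shares of non-dividing immature cells were 27.9% and 24.8% in wild-type and 23.1% and 17.7% in SCD. In non-dividing immature cells the share with both was 8.35% in wild-type and 5.34% in SCD.

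**Figure D4:**
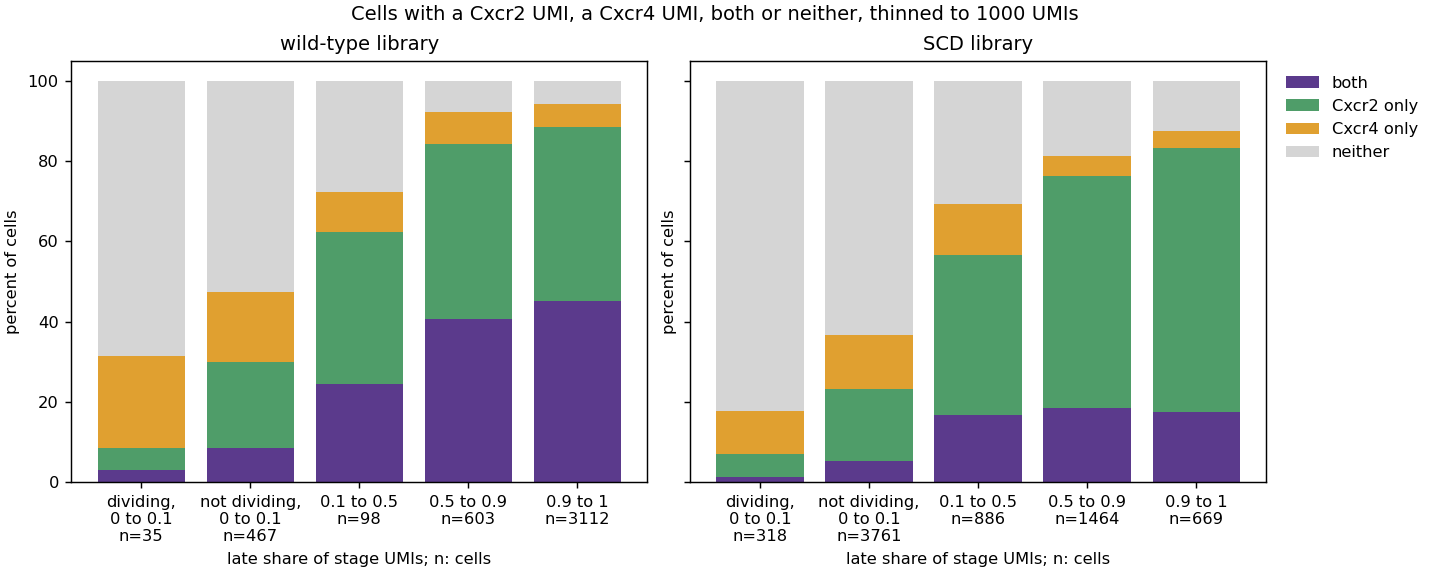
Percent of neutrophils with a Cxcr2 UMI only, a Cxcr4 UMI only, both or neither, after thinning each cell to 1000 UMIs, in 5 ranges of maturity (n cells under each bar). Cells with both reach 45.2% in the most mature wild-type range and 17.5% in the most mature SCD range.

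Stress genes moved with Cxcr4 across these cells. In the most mature range the stress list held 10.1 UMIs per 1000 in wild-type and 5.56 in SCD, while in non-dividing immature cells it held 1.53 and 1.40. Within the most mature wild-type cells, Cxcr4 was 543 CPM in cells with 0 to 4 stress UMIs of 1000, 703 with 5 to 9, 934 with 10 to 14 and 1209 with 15 or more. In SCD the same stress ranges held 220, 298, 312 and 846 CPM, the last from 13 UMIs in 8 cells. Cxcr4 thus rose with the stress list in both libraries, and within each of the first 3 stress ranges it was lower in SCD, with log2 ratios of -1.28, -1.22 and -1.56 and intervals that did not overlap. In the range of 15 or more the log2 ratio was -0.51 and the intervals overlapped (451 to 1447 CPM in SCD, 1145 to 1276 CPM in wild-type). Cxcr2 varied less with stress, from 2248 to 2567 CPM in wild-type and from 1671 to 2181 CPM in SCD. Ccr1 stood at 916, 1061, 1016 and 1053 CPM in the wild-type stress ranges and at 654, 839, 937 and 846 CPM in those of SCD. Over the first 3 stress ranges of SCD, Ccr1 and Cxcr2 (1671, 2024 and 2181 CPM) thus rose as well, so a rise with the stress list was not particular to Cxcr4 there.

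**Figure D5:**
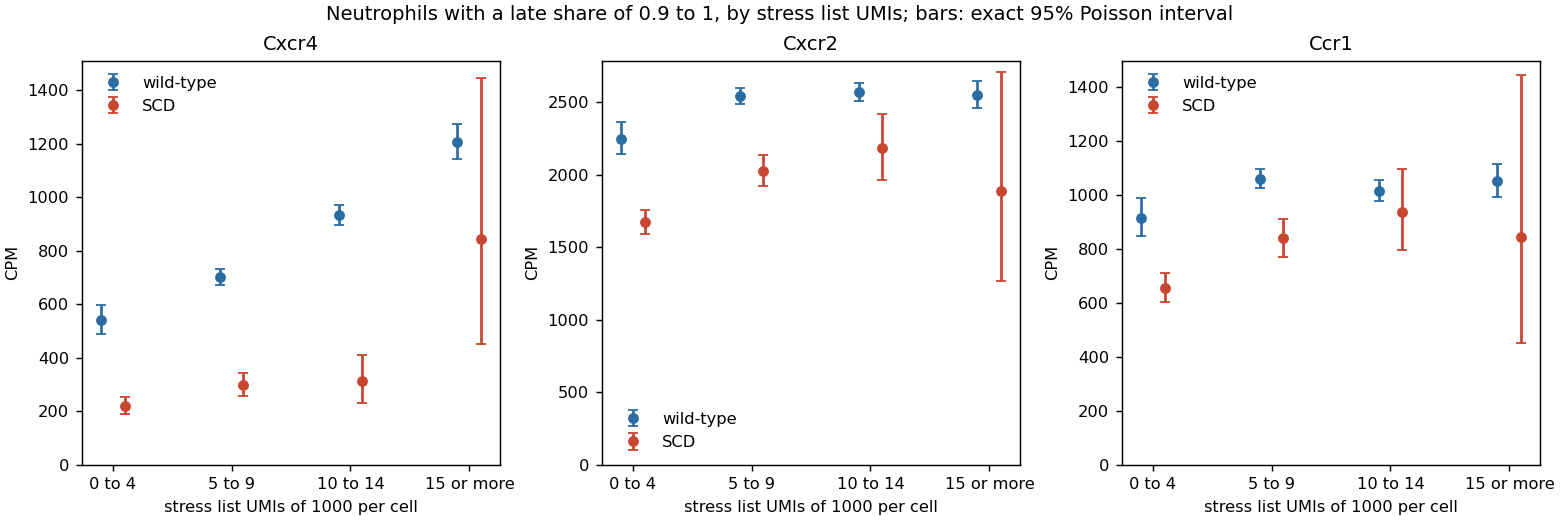
Cxcr4, Cxcr2 and Ccr1 level (CPM) in neutrophils with a late share of 0.9 to 1, split by the stress list UMIs of the cell, for wild-type (blue) and SCD (red) with exact 95% Poisson intervals. Cxcr4 rises from 543 to 1209 CPM with stress in wild-type, and the SCD points lie below in each stress range, although the last SCD point rests on 8 cells.

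Of the 10 compared classes, those next to neutrophils for Cxcr4 were non classical monocytes and mature DCs. Classes too small or too mixed to compare held more of it in places, such as B cells at 413 CPM in wild-type (21 cells) and 237 CPM in SCD (287 cells), and dividing monocytes at 266 CPM (43 cells) and 154 CPM (360 cells). Non classical monocytes held 214 CPM in wild-type and 137 CPM in SCD (ratio 0.643, 0.470 to 0.860), and mature DCs 159 and 106 CPM (ratio 0.668, 0.496 to 0.883). In SCD the intervals of these neighbours in the order of levels overlapped. Classical monocytes held 70.2 and 33.9 CPM (ratio 0.483, 0.421 to 0.554), just short of 2-fold with the pseudocount (log2 ratio -0.95), and pDCs 49.2 and 56.2 CPM (ratio 1.14, 0.974 to 1.34). The stress list was also lower in SCD in classical (5871 and 3765 CPM) and non classical monocytes (8293 and 5646 CPM) but not in mature DCs (7035 and 7173 CPM), and its part in the Cxcr4 differences of these classes was not tested. To see how much neutrophil RNA entered these values, cells with fewer than 3 neutrophil marker UMIs of 1000 were taken alone. In such wild-type cells Cxcr4 stayed at 192 CPM in non classical monocytes, 153 in mature DCs and 61.1 in classical monocytes, whereas Cxcr2 fell from 73.9 to 6.21 CPM in non classical monocytes and from 34.1 to 3.74 CPM in classical monocytes. Only 19.4% of SCD classical monocytes were that low in neutrophil UMIs, against 83.8% in wild-type, and among them Cxcr4 was 35.0 CPM. The pDC value of Cxcr4 depended on the clustering, with log2 ratios of 0.83 to 0.92 in the 4 settings that clustered or filtered the cells otherwise, against 0.18.

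Classical monocytes expressed 4 of the receptors, and none passed 2-fold, where 1.83% of expressed genes were at least 2-fold lower and 1.06% at least 2-fold higher in SCD. Ccr2 was the most abundant, at 1494 CPM in wild-type and 1764 CPM in SCD (ratio 1.18, 1.15 to 1.21), and it was higher in this class than in any other compared class of both libraries. A Ccr2 UMI was found in 70.1% and 80.1% of thinned cells (97.6% and 99.6% unthinned, median depths 10736 and 12120 UMIs), against 0.462% and 1.002% of thinned neutrophils (median depths 2452 and 6958 UMIs). Cx3cr1 was lower, at 611 and 370.0 CPM (ratio 0.606, 0.580 to 0.633). Ccr2 and Cx3cr1 thus differed in opposite directions in this class. The list of cell cycle genes also differed there, at 50.8 CPM in wild-type and 355 CPM in SCD, and the cluster of dividing monocytes held Cx3cr1 at 146 and 136 CPM. The part of dividing cells in the Cx3cr1 difference was not tested. S1pr5, below the expression limit here, stood at 20.4 and 6.01 CPM (131 and 70 UMIs, ratio 0.294, 0.217 to 0.397), so it lay on the same side as Cx3cr1.

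Ccr1 differed the other way from neutrophils. In classical monocytes it stood at 43.4 CPM in wild-type and 82.8 CPM in SCD (ratio 1.91, 1.67 to 2.19). Neutrophil RNA carries Ccr1 too, and the neutrophil markers stood at 3701 CPM in wild-type and 8902 CPM in SCD monocytes. In the 496 wild-type and 182 SCD monocytes with few neutrophil UMIs, Ccr1 was 31.0 and 74.7 CPM (intervals 26.5 to 36.1 and 64.0 to 86.7), a log2 ratio of 1.15. Such cells made up 83.8% of monocytes in wild-type but 19.4% in SCD. With called doublets removed the log2 ratio was 1.16, against 0.86 in all cells.

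Non classical monocytes, the patrolling monocytes of the vessel wall, expressed 5 of the receptors. Cx3cr1 was the highest, at 949.5 CPM in wild-type and 944 CPM in SCD (ratio 0.994, 0.885 to 1.11), an interval that includes equal levels. S1pr5 stood at 254 and 190.4 CPM (ratio 0.751, 0.577 to 0.963) and Ccr2 at 105 and 120.4 CPM (ratio 1.15, 0.814 to 1.58). The library-wide ratio of 0.119 for S1pr5 thus stood beside far fewer of these cells and a ratio of 0.751 within them. A S1pr5 UMI was found in 21.6% of wild-type and 14.8% of SCD cells after thinning (76.5% and 55.6% unthinned, median depths 6110 and 6014 UMIs), against 0.0728% of wild-type Dtx1-type cDC2. Cxcr2 was the member past 2-fold, from 73.9 to 8.40 CPM, where 1.75% of genes were lower and 2.25% higher. It rested on 221 UMIs in 49 wild-type cells and 3 UMIs in SCD, and its log2 ratio was -0.05 with called doublets removed, against -2.56.

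Among DCs, cDC1 expressed 4 receptors, of which Cxcr3 and Ccr9 reached 50 CPM only in SCD. Xcr1, the receptor for XCL1, stood at 593 CPM in wild-type and 655 CPM in SCD (ratio 1.10, 1.04 to 1.18). A Xcr1 UMI was found in 33.3% and 40.8% of thinned cells (81.4% and 81.7% unthinned, median depths 15838 and 15352 UMIs), with 0 of 759 wild-type and 0 of 496 SCD pDCs (upper bounds 0.485% and 0.741%, median depths 11124 and 8833 UMIs). Of the compared classes, mature DCs came next for Xcr1, at 7.53 and 19.6 CPM, and a mixed conventional DC class left out of the comparison held 10.6 and 84.1 CPM. Ccr2 stood at 232 and 321 CPM in cDC1 (ratio 1.38, 1.25 to 1.53), Cxcr3, the receptor for CXCL9 and CXCL10, at 32.1 and 57.9 CPM (ratio 1.80, 1.40 to 2.35), and Ccr9 at 45.6 and 55.2 CPM (ratio 1.21, 0.961 to 1.53). None passed 2-fold, where 0.434% of genes were lower and 1.24% higher. The Ccr2 UMIs lay in a minority of cDC1. After thinning, 18.7% of wild-type and 16.7% of SCD cDC1 held a Ccr2 UMI (37.8% and 42.6% unthinned), so the thinned share was not higher in SCD. Cell cycle genes (499 and 1250 CPM) and neutrophil markers (2413 and 11431 CPM) were also higher in SCD cDC1, and their part was not tested.

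The cDC2 split into a Cd209a type and a Dtx1 type with different receptors. Against all kept cells, the leading genes of the Cd209a type included the DC markers Cd209a, Clec10a and H2-Eb1. Against the other conventional DCs they included the cDC2 markers Clec10a and Cd209a but also the monocyte markers F13a1 and Fn1, so its name as cDC2 is uncertain. The Cd209a type resembled monocytes in carrying Ccr2 at 853 CPM in wild-type and 1262 CPM in SCD (ratio 1.48, 1.38 to 1.58) and Cx3cr1 at 460.2 and 313 CPM (ratio 0.680, 0.605 to 0.762). Ccr2 and Cx3cr1 lay on opposite sides in classical monocytes as well. The Cd209a type was not found as a class of its own with total count normalization, at resolution 2 or with the filters off, so these values have no counterpart there. Ccr1 stood at 49.6 and 58.7 CPM (ratio 1.18, 0.873 to 1.60), and 0 of the 3 expressed members passed 2-fold, where 1.6% of genes were lower and 0.598% higher. Cell cycle genes (85.2 and 329 CPM) and neutrophil markers (1727 and 5881 CPM) were also higher in SCD cells of this type. Their part was not tested. In the Dtx1 type the 1 expressed member was Ccr6, the receptor for CCL20, at 57.8 and 58.1 CPM (ratio 1.004, 0.796 to 1.25), where 0.235% of genes were lower and 0.44% higher. A Ccr6 UMI was found in 5.90% and 4.79% of thinned cells (28.1% and 27.3% unthinned, median depths 7536 and 7200 UMIs), against 0.0462% of wild-type neutrophils. The library-wide ratio of 0.0825 for Ccr6 was thus not seen inside its main class.

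Mature DCs, which carry Fscn1 and Ccl22, expressed Cxcr4 alone of the members, and it did not pass 2-fold, where 2.4% of genes were lower and 2.83% higher. Ccr6, under the expression limit, stood there at 43.4 CPM in wild-type and 17.7 CPM in SCD, the latter from 9 UMIs. In pDCs, the type I interferon producers, Ccr9 was the most abundant member, at 969 CPM in wild-type and 911 CPM in SCD (ratio 0.940, 0.905 to 0.976). A Ccr9 UMI was found in 56.7% and 54.2% of thinned pDCs (98.4% and 93.6% unthinned, median depths 11124 and 8833 UMIs), against 0.116% and 0.0696% of neutrophils. Ccr2 stood at 801 and 751 CPM (ratio 0.938, 0.899 to 0.977) and Cxcr3 at 71.0 and 61.2 CPM (ratio 0.863, 0.745 to 0.997). None of the 4 expressed members passed 2-fold in pDCs, where 0.231% of genes were lower and 0.346% higher. In the settings that clustered the cells otherwise or left the filters off, the log2 ratio of Ccr9 was between -0.40 and -0.56, against -0.09. For Cxcr3, pDCs stood above cDC1 beyond counting error in wild-type, but not in SCD.

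Red pulp macrophages and erythroid cells held the members at low counts. In red pulp macrophages Cxcr2 stood at 115 CPM in wild-type and 47.6 CPM in SCD, Cxcr4 at 62.2 and 9.53 CPM and Ccr1 at 51.0 and 21.4 CPM. These 3 members reached 50 CPM only in wild-type and were at least 2-fold lower in SCD, on 4 to 20 UMIs each, where 5.51% of genes were lower and 3.03% higher, so the count is no support for a common direction. In the 156 of 288 wild-type macrophages with few neutrophil UMIs, Cxcr2 was 9.72 CPM (4 UMIs), Ccr1 2.43 CPM (1 UMI) and Cxcr4 21.9 CPM (9 UMIs, 10.0 to 41.5). Only 6 SCD macrophages were that low in neutrophil UMIs, too few to compare. In erythroid cells 2 of 4 expressed members were at least 2-fold lower, Cxcr2 (116 and 16.0 CPM) and Cx3cr1 (94.7 and 42.6 CPM). In that class 6.34% of genes were lower and 53.8% higher, the median gene had a log2 ratio of 1.10, and the sign of Cxcr2 changed with the clustering.

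The genes whose levels followed each member most closely were taken over 20 sums of class and library, by Pearson's r of log2(CPM + 5) against 6491 expressed genes. These r values describe the same 2 libraries and carry no test. For Cxcr2 the leading genes were Stfa2l1 (0.966, a neutrophil marker), Nlrp12 (0.961) and Hdc (0.947), and for Ccr1 they were Cd33 (0.910), Slfn1 (0.895) and Cxcr2 itself (0.859). Cxcr4 had the loosest match of all members, with Alox5 (0.776) and Mxi1 (0.764) among its leading genes, and it was itself spread over neutrophils, monocytes and DCs. Ccr2 was followed by Ahnak (0.919), Padi2 (0.916) and S100a10 (0.879), Cx3cr1 by Tppp3 (0.913), Ace (0.906) and Nupr1 (0.9003), and S1pr5 by Smpdl3b (0.966), Tgfbr3 (0.938) and Plagl2 (0.923). Among the DC receptors, Xcr1 was followed by Dbn1 (0.973), Itgae (0.969) and Cd207 (0.965), Ccr9 by Pacsin1, Fcrla and Pmepa1 (0.953 to 0.954), Cxcr3 by P2ry14 (0.923), Fcrla (0.907) and Gpr171 (0.877), and Ccr6 by Lysmd2 (0.960), Sucnr1 (0.957) and Tmod2 (0.954).

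The wider pathway was read from lists of 28 other receptors, 22 ligands of the members and 15 signalling genes. In neutrophils 2 of 7 expressed other receptors were at least 2-fold lower in SCD, the complement receptor C5ar2 (189 to 40.4 CPM) and the platelet-activating factor receptor Ptafr (354 to 78.5 CPM), in a class where 19.5% of all expressed genes were lower. Of 9 expressed signalling genes 2 were lower, Rgs2, a regulator of G protein signalling (918 to 257 CPM), and Klf2 (665 to 183 CPM), a share near that of all genes. In the range 0.9 to 1, receptors went both ways beside Cxcr4, as C5ar2 (305 to 184.5 CPM) and Ptafr (591 to 362 CPM) were lower, the formyl peptide receptor Fpr1 (157 to 216 CPM) was higher and Fpr2 (314 to 302 CPM, ratio 0.962, 0.873 to 1.06) was not distinguishable from equal. In the range 0.5 to 0.9, C5ar2 (268 to 131 CPM, log2 ratio -1.01) was past 2-fold lower, as Cxcr4 was. So was Ccrl2 (24.4 to 7.70 CPM, log2 ratio -1.21), which lay under the expression limit. Fpr1 (194.5 to 258.5 CPM) and S1pr4 (31.7 to 55.4 CPM) were higher there, by less than 2-fold. In classical monocytes 1 of 11 expressed signalling genes was past 2-fold, the receptor kinase gene Grk3 (145 to 53.5 CPM), where 1.83% of all expressed genes were lower. In the 54 SCD non classical monocytes 3 of 5 expressed other receptors were at least 2-fold higher, where 2.25% of all expressed genes were higher. These were Fpr1 (22.7 to 106 CPM), Fpr2 (94.2 to 218.5 CPM) and Ptafr (43.8 to 146 CPM). Fpr1 and Ptafr reached 50 CPM only in SCD, so the count is no support for a direction.

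Of the expressed ligands, 1 of 2 in cDC1, 3 of 5 in Cd209a-type cDC2, 1 of 3 in mature DCs and 2 of 3 in red pulp macrophages were at least 2-fold lower in SCD, where 0.434%, 1.6%, 2.4% and 5.51% of all expressed genes were lower. The lower ligand of cDC1 exceeded 50 CPM in both libraries. Those of the other classes reached 50 CPM only in wild-type, where they were high, so their counts are no support for a direction. None of 2 in classical monocytes, 2 in pDCs and 1 in Dtx1-type cDC2 passed 2-fold. The Cxcr3 ligand Cxcl9 was lower in SCD in cDC1 (468 to 99.2 CPM), in Cd209a-type cDC2 (104.5 to 5.79 CPM), in mature DCs (81.6 to 1.96 CPM, 1 UMI in SCD) and in red pulp macrophages (60.6 to 7.14 CPM, 3 UMIs in SCD). In cDC1 the receptor Cxcr3 and its ligand Cxcl9 thus differed in opposite directions. Cxcl10 was lower in Cd209a-type cDC2 (55.8 to 21.0 CPM), and Ccl5, a Ccr1 ligand, was lower in these cells (249 to 11.6 CPM) and in red pulp macrophages (108 to 4.76 CPM). Erythroid cells went from 120.6 to 3.55 CPM of Ccl5 (2 UMIs in SCD). Of the 3 expressed ligands of erythroid cells 1 was lower and 1 higher, Ccl9 (30.1 to 67.4 CPM), where 6.34% of genes were lower and 53.8% higher. Called doublets were 11.8% of wild-type and 3.20% of SCD Cd209a-type cDC2, and mature DCs, which carried most Ccl5, were 6.53% of the kept wild-type and 0.818% of the kept SCD cells. The part of doublets and of free RNA in these differences was not tested. In the classes that carried most Ccl5 the libraries were closer, at 7418 and 6235 CPM in mature DCs (ratio 0.841, 0.810 to 0.872) and 674 and 747 CPM in Dtx1-type cDC2 (ratio 1.11, 1.04 to 1.18). In the 54 SCD non classical monocytes 3 of 6 expressed ligands were at least 2-fold higher, Ccl3 (4.35 to 106 CPM), Ccl4 (4.01 to 120.4 CPM) and the Cxcr2 ligand Cxcl2 (1.67 to 126 CPM), in a class where 2.25% of all expressed genes were higher. These 3 ligands reached 50 CPM only in SCD, where they were high, so their count is no support for a direction. The Ccr1 ligand Ccl6, the 1 expressed ligand of neutrophils, was lower there (2715 to 535 CPM), but it is also a gene of the late stage list.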

How the data were processed

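Spleen cells of 1 wild-type and 1 SCD mouse had been profiled with 10x Genomics 3′ v3.1 chemistry. The matrices deposited by the authors hold raw UMI counts, made with Cell Ranger 4.0.0 on GRCm38.p6. The submitters' processing notes also name R 4.4, Seurat 3.2.3 and Scanpy 1.6.0. The counts had not been normalized.

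Cells with 500 to 5000 genes, under 15% mitochondrial and under 30% ribosomal UMIs were kept. Genes seen in at least 20 cells were scaled with scran 1.30.0 (R 4.3.3) and 2000 variable genes gave 30 principal components, a graph of 15 neighbours and Leiden clusters at resolution 1 (Python 3.11.15, matplotlib 3.10.9, scanpy 1.11.5, leidenalg 0.10.2, pandas 2.3.3, numpy 2.4.6, scipy 1.17.1). The 10 members and 28 related receptors were hidden from clustering and naming. A cluster was named from the mean of its 8 best markers, with at least 3 detected and a margin of 0.05, and the 10 classes with at least 50 cells in both libraries were compared, leaving out unnamed cells and a mixed conventional DC class of which 84.4% in wild-type and 30.4% in SCD were called doublets. Scrublet called 444 wild-type and 266 SCD cells doublets (kept, and removed in an alternative). The alternatives without doublets and with at least 1000 genes dropped cells from these classes without new clusters.

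UMIs were summed per class, scaled to 1000000 (CPM) and compared with a pseudocount of 5 CPM and exact Poisson, Clopper-Pearson and conditional intervals. Shares came from cells thinned to 1000 UMIs. Neutrophil stages were shares of late among early, intermediate and late list UMIs (at least 10 per thinned cell, limits 0.1, 0.5 and 0.9), and dividing cells held at least 5 cell cycle UMIs. The ratio and its interval were tested on simulated data. The members and lists were chosen with earlier results of these data known. Named genes were the members in every class, the list genes past 2-fold, and the 3 genes most like each member, of which some are not reported here. Other genes named for comparison were chosen after their values were seen.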

Additional observations from a re-analysis of the deposited data

Results flagged for a closer look

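Ccr1 lay in opposite directions in 2 cell classes. Its log2 ratio (SCD over wild-type) was 0.86 in classical monocytes and -1.86 in neutrophils, with both counting intervals clear of equal levels. Ccr2 had a log2 ratio of 0.56 in Cd209a-type cDC2 and -0.0925 in pDCs, and Cxcr3 of 0.76 in cDC1 and -0.20 in pDCs. With 1 mouse per group these differences between classes were not tested.

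Cells with over 5000 genes, which no comparison used, also carried members (295 wild-type and 1220 SCD cells after the other filters). In the SCD cells Ccr2 stood at 205.6 CPM (wild-type 97.6), Cxcr4 at 63.5 (48.0), Cx3cr1 at 29.4 (19.3) and Ccr1 at 15.6 CPM (11.2), each above the wild-type level beyond counting error. The remaining members stood lower in the SCD cells, with Xcr1 at 7.81 CPM (wild-type 37.3), Ccr9 at 4.36 (19.6), Cxcr2 at 13.8 (18.5), Cxcr3 at 1.28 (3.80), Ccr6 at 0.110 (1.77) and S1pr5 at 0.248 CPM (0.750). These cells were not assigned to classes, so their mix of cell types was unknown. The share of all genes higher or lower in them was not counted.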

How the results depend on the processing

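No paired analysis was possible because the labels gave 1 mouse per genotype, and there was no replicate to leave out. The pairs of receptor and class at least 2-fold lower in SCD numbered 9, against 5 without called doublets, 4 at resolution 2 and 5 with the mitochondrial and ribosomal filters off, and those higher numbered 0, against 1 without doublets, 1 with all variable genes and 1 with the filters off. In cells with few neutrophil UMIs, an alternative chosen after seeing the data, Ccr1 in classical monocytes had a log2 ratio of 1.15. Among pairs past 2-fold, here including those below the expression limit, signs turned for Cxcr2 in pDCs (0.094 without doublets). In erythroid cells signs turned for Cx3cr1 (0.092 with all variable genes), Ccr1 (0.66 with total count normalization, 0.46 at resolution 2) and Cxcr2 (0.27 and 0.17). The cause was not tested. Counting smaller differences too, signs changed in 6 pairs without doublets, 3 with all variable genes, 8 with total count normalization, 6 at resolution 2, 8 with the filters off, 3 with median-of-ratios scaling and 3 in cells with few neutrophil UMIs. In the most mature neutrophils the Cxcr4 log2 ratio of -1.65 was -1.16 with clusters in place of ranges and Cxcr2 (-0.44) was -0.26, with an SCD Cxcr4 to Cxcr2 ratio of 0.178, and the wild-type ratio was 0.312 at 1000 genes or more. Alternatives chosen after seeing the data gave -1.43 for Cxcr4 and -0.22 for Cxcr2 (median-of-ratios scaling), -1.28, -1.22 and -0.51 for Cxcr4 (0 to 4, 5 to 9 and 15 or more stress UMIs) and -0.33 and -0.23 for Cxcr2 (5 to 9 and 10 to 14). Depth limited the SCD non classical monocytes (54 cells), mature DCs (87 cells) and red pulp macrophages (median 1544 UMIs).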

Other observations

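Receptors outside the members had main classes of their own. Ccr7, which guides mature DCs to lymphoid zones, stood at 1170 CPM in wild-type and 1626 CPM in SCD mature DCs (ratio 1.39, 1.289 to 1.497), where Cxcr4 had a ratio of 0.668. Gpr183, a receptor for oxysterols, stood at 489 and 324 CPM in the same cells (ratio 0.661, 0.561 to 0.776). Ccr3 stood at 1096 and 1012 CPM in red pulp macrophages (ratio 0.923, 0.816 to 1.04). None of these passed 2-fold. These genes were chosen after their values were seen.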
